A study of Mus musculus with 2 samples.

Results

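The respiratory chain and ATP synthase carry out oxidative phosphorylation in the inner mitochondrial membrane. Complexes I and II pass electrons from NADH and succinate to ubiquinone, complex III passes them on to cytochrome c and complex IV to oxygen, while complexes I, III and IV pump protons and complex V, the ATP synthase, uses the return flow of protons to make ATP. Most subunits are encoded in the nucleus, in genes scattered over the chromosomes, and some complex IV subunits exist in a widely expressed form and a form restricted to tissues such as heart, skeletal muscle or testis. The genes described here were chosen by symbol: Nduf with a, b, c, s or v for complex I, Sdha to Sdhd for complex II, Uqcr for complex III, Cox4 to Cox8 for complex IV and Atp5 for complex V. The rule found 114 probe sets of 89 genes among 19938 genes measured, with 43 genes in complex I, 4 in complex II, 8 in complex III, 17 in complex IV and 17 in complex V.

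Transcript levels were measured in mouse embryonic fibroblasts (MEFs) of the reciprocal genotypes MatDup.dist7, with both copies of distal chromosome 7 of maternal origin, and PatDup.dist7, with both of paternal origin. Both cultures derived from embryos at 13.5 days post coitum, and each genotype was measured on 1 array, so no difference could be tested against variation between cultures. The sources used here do not give how many embryos went into a culture, or where the duplicated segment begins. Values are intensities on a linear scale, and a difference is the MatDup.dist7 level minus the PatDup.dist7 level on log2(intensity + 16), a scale that compresses differences at low signal. A gene counted as above the signal filter when its higher value exceeded an intensity of 66.4, the 50th percentile of all probe sets.

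The sources of signal were checked first. The median intensity over all probe sets was 68.6 for MatDup.dist7 and 64.2 for PatDup.dist7. All 10 fibroblast markers lay above the signal filter, with Vim, the mesenchymal intermediate filament gene, at 11913 in MatDup.dist7 cells and 11542 in PatDup.dist7 cells. Their summed intensity was 41973 in MatDup.dist7 cells and 49793 in PatDup.dist7 cells, with Dcn (-1.95) and Postn (-1.75) more than 2-fold lower in MatDup.dist7. The 6 macrophage markers also lay above the filter, with sums of 2731 in MatDup.dist7 cells and 3106 in PatDup.dist7 cells, as did 2 of 3 liver markers, where all 3 had sums of 912 in MatDup.dist7 cells and 732 in PatDup.dist7 cells. The part of these cell types in the values of the members was not tested. Xist was listed at 0.00166 in MatDup.dist7 cells and 91.2 in PatDup.dist7 cells. The Y-linked genes went the other way. Eif2s3y had 112 in MatDup.dist7 cells and 6.44 in PatDup.dist7 cells, Uty 77.9 and 2.61, and Kdm5d 122 and 22.9, in the same order. The arrays thus differed in markers of sex, and the sex of the cultures and the genotype cannot be told apart for any gene below.

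Promoter sequences are shown for members on which the results turn: Cox8b, the member with the largest positive difference, Cox6b2, the structural subunit gene with the most negative one, their widely expressed partners Cox8a and Cox6b1, Uqcr11, with the next largest positive difference, and Cox6a1, which held both motifs searched. Each line gives the 250 bases before the RefSeq transcript start on GRCm38.p6, 5′ to 3′ on the strand of the gene. Capitals mark CATGCGC, part of the core bound by NRF1, and CCGGAAG, an ETS-type core bound by GABPA, on either strand; in the Cox6a1 window a pair of overlapping NRF1 matches from -162 to -153, counted from the transcript start, forms 1 run of capitals. NRF1 and GABPA are transcription factors known for regulating nuclear genes of the respiratory chain.
Cox8b, chr7:140900447-140900696, minus strand: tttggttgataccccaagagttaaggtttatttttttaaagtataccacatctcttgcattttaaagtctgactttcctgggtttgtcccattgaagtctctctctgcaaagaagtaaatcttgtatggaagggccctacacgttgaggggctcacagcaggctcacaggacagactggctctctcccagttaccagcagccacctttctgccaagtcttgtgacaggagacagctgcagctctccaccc
Cox8a, chr19:7217617-7217866, minus strand: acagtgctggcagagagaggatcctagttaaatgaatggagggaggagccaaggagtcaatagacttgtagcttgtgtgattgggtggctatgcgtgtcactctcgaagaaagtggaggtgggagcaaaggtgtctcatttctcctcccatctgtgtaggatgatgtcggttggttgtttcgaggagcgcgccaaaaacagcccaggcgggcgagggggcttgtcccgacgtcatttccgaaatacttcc
Cox6b2, chr7:4753095-4753344, minus strand: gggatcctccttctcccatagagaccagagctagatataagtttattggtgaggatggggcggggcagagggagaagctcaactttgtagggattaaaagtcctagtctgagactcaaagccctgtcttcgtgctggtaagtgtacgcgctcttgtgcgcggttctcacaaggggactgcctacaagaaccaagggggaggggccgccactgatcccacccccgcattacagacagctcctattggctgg
Cox6b1, chr7:30626115-30626364, minus strand: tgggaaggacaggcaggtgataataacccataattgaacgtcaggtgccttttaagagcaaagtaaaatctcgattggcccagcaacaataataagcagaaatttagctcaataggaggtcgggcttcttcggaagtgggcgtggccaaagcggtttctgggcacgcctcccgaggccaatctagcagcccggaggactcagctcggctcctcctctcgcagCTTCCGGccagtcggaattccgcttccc
Uqcr11, chr10:80406822-80407071, minus strand: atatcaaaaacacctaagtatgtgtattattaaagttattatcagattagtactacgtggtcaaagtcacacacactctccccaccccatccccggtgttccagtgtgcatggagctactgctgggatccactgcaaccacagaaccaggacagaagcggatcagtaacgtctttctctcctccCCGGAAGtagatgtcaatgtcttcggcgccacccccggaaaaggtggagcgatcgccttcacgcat
Cox6a1, chr5:115348959-115349208, minus strand: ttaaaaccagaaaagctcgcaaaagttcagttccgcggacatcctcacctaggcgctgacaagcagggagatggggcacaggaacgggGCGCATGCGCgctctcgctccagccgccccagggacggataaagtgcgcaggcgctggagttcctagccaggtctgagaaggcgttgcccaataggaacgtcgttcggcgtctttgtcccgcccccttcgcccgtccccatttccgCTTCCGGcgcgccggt

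These windows differed in CpG dinucleotides as well. The Cox8b window held 1 CpG and that of Cox8a 11, and the Cox6b2 window held 8 and that of Cox6b1 14. Promoters of 73 of the 89 members were matched in the RefSeq table. The NRF1 letters were found before 11 of these 73 genes (15.1%), against 4.86% of the 15563 array genes with a promoter and 3.68% of all 27025 genes in the table. The GABPA letters were found before 13 members (17.8%), against 10.7% of array genes and 7.83% of all genes. No match of 1 motif can be a match of the other, and 3 members held both. The 21 members with either motif had a median absolute log2 difference of 0.13 and the 52 members with neither one of 0.23. The 52 include Cox8b and Cox6b2. These sets were not matched for signal, and the 30 members of lowest signal had a median absolute difference of 0.27. A link between a motif and the size of a difference was not tested. A match is a match of letters, and binding was not measured.

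Across the whole pathway the genotypes differed little. The median log2 difference of the 89 members was -0.03, beside 0.02 over all genes, and 40 members were higher in MatDup.dist7 and 49 lower. The share with a positive difference was 44.9%, against 51.4% of all genes. Above the signal filter it was 45% of members, against 49.3% of genes. The signed difference of all genes fell with rising signal, as given by range of signal below. In MatDup.dist7 cells, Cox8b alone was higher by 2-fold or more (1 of 89 members, against 4.47% of all genes), and Ndufa4l2 alone at least 2-fold lower (1 of 89, against 3.16%). Together they are 2 of 89 members, against 7.63% of all genes. Both of them lay below the signal filter, as did 7 other members.

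At 1.5-fold, 5 of the 89 members (5.62%) differed, against 27.9% of all genes. The 3 besides Cox8b and Ndufa4l2 were Uqcr11, which was higher in MatDup.dist7, and Cox6b2 and Ndufb3, which were lower. Just short of the 1.5-fold limit stood Uqcrfs1 at -0.57 and Ndufa5 at 0.55. Among the 80 members above the signal filter, 3 (3.75%) were at least 1.5-fold apart and none 2-fold, against 23.2% and 5.16% of the 12733 genes above it. Those 3 members, Uqcr11, Cox6b2 and Ndufb3, passed the filter only through the genotype in which they were higher, and their other value lay below it, so this count is a description and not support. By direction, the 2-fold limit was passed upwards in MatDup.dist7 by 2.74% of the genes above the filter and downwards by 2.42%. The median absolute difference was 0.17 for the 89 members and 0.38 for all genes.

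**Figure D1:**
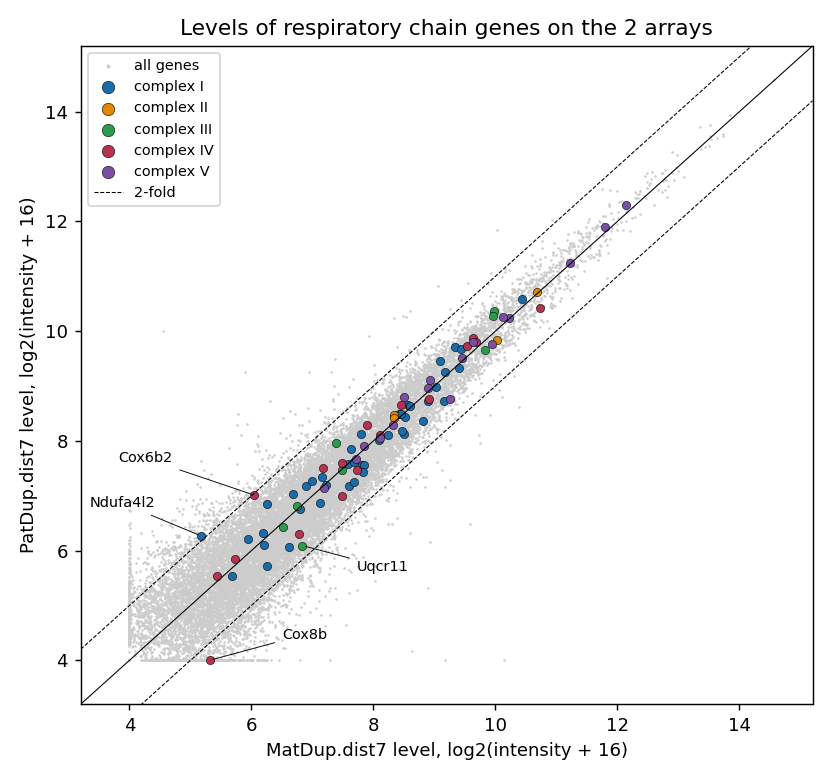
Level of each gene on the MatDup.dist7 array (horizontal axis) and the PatDup.dist7 array (vertical axis), both log2(intensity + 16), with 1 point per gene: grey for all 19938 genes and coloured by complex for the 89 members. The solid line marks equal levels and the dashed lines 2-fold differences; Cox8b and Ndufa4l2 lie outside them.

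The spread was also set beside that of genes in the same range of signal. Members were ranked by mean level and divided into 3 classes. In the highest class, with intensities from 416 to 4747, the median absolute difference was 0.17 for 30 members and 0.26 for the 2555 genes of all kinds in that range. In the lowest class, from 9.24 to 172, it was 0.27 for 30 members and 0.43 for 12700 genes. In the middle class, from 172 to 416, it was 0.13 for 29 members and 0.32 for 3593 genes. The members had the smaller median in all 3 ranges. The lowest range starts at the mean level of Cox8b, and levels within a range were not matched. From the lowest range to the highest, the signed median was 0.01, -0.0011 and -0.08 for the members. For all genes in these ranges it was 0.095, -0.04 and -0.12. For scale, probe sets of 1 gene had a standard deviation of 0.43 around their mean difference over the 724 genes above the filter with several probe sets and 0.27 over the 17 such members.

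**Figure D2:**
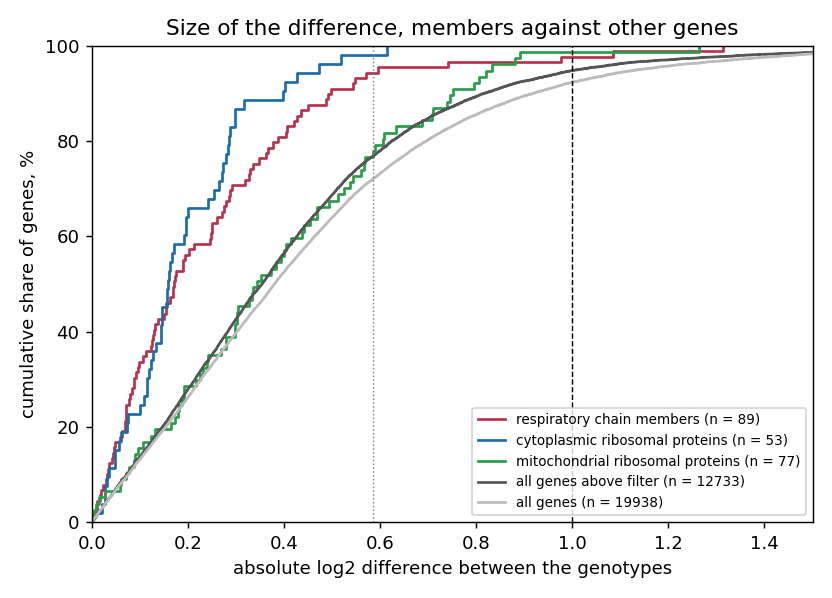
Cumulative share of genes (vertical axis, percent) by absolute log2 difference between the genotypes (horizontal axis), for the 89 respiratory chain members, 53 cytoplasmic and 77 mitochondrial ribosomal protein genes, the 12733 genes above the signal filter and all 19938 genes. The dotted and dashed lines mark 1.5-fold and 2-fold; the member curve reaches 94.4% at 1.5-fold, where all genes stand at 72.1%.

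Complex I, the NADH dehydrogenase, had a median difference of 0.03 over the 43 genes placed in it by symbol, of which 23 were higher in MatDup.dist7 and 20 lower. These include 7 assembly factors, as well as Ndufa4 and Ndufa4l2, which are described with complex IV below. Without the assembly factors and Ndufa4l2, but with Ndufa4, the median was 0.07 over 35 genes. The 6 measured core subunits of its matrix arm, among them those that carry the flavin and iron-sulfur clusters, lay close to 0. Ndufv1, which binds NADH and the flavin, had 286 in MatDup.dist7 cells and 259 in PatDup.dist7 cells (log2 difference 0.14). Ndufv2 had 352 in MatDup.dist7 cells and 331 in PatDup.dist7 cells (0.08). Ndufs1, the largest subunit of the arm, had 363 in MatDup.dist7 cells and 387 in PatDup.dist7 cells (-0.09). The core subunits near the ubiquinone site behaved in the same range, with Ndufs3 at -0.04, Ndufs7 at -0.21 and Ndufs8 at 0.17.

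Accessory subunits of complex I do not carry electrons but are needed for its assembly and stability. Of the 18 in the membrane arm, 12 (66.7%) were higher in MatDup.dist7, against 51.4% of all genes, and the median was 0.11. Ndufc2 had 432 in MatDup.dist7 cells and 312 in PatDup.dist7 cells (0.45), the largest positive difference of this arm. Ndufa3 had 554 in MatDup.dist7 cells and 405 in PatDup.dist7 cells (0.43). Ndufc1 stood at 0.42 and Ndufa13, also known as GRIM-19, at 0.40, and none of the 18 reached 1.5-fold higher. Ndufb3 was the exception on the other side, with 60.4 in MatDup.dist7 cells and 99.3 in PatDup.dist7 cells (-0.60). Ndufa8 had 631 in MatDup.dist7 cells and 818 in PatDup.dist7 cells (-0.37), Ndufb11 stood at -0.33 and Ndufa10 at -0.25. The other 10 membrane-arm subunits ranged from -0.07 for Ndufb7 to 0.28 for Ndufb5.

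The 9 accessory subunits of the matrix arm had a median of -0.08 and went both ways. Ndufa5 had 81.7 in MatDup.dist7 cells and 50.8 in PatDup.dist7 cells (0.55), Ndufa6 stood at 0.43 and Ndufa7 at 0.38. Ndufv3 had 529 in MatDup.dist7 cells and 684 in PatDup.dist7 cells (-0.36). Ndufa2 stood at -0.27, Ndufa12 at -0.15, Ndufs6 at -0.13, Ndufa9 at -0.08 and Ndufs4 at 0.02. Ndufab1, the mitochondrial acyl carrier protein found in both arms, had 176 on each array (-0.0011).

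The 7 Ndufaf genes encode assembly factors that are not part of the finished complex. Their median was -0.17. Ndufaf2 had 60.7 in MatDup.dist7 cells and 36.7 in PatDup.dist7 cells (0.54) but lay below the signal filter, as did Ndufaf5 (0.11). Ndufaf6 stood at 0.03, and the other 4 were lower in MatDup.dist7, from -0.35 for Ndufaf7 to -0.17 for Ndufaf4.

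**Figure D3:**
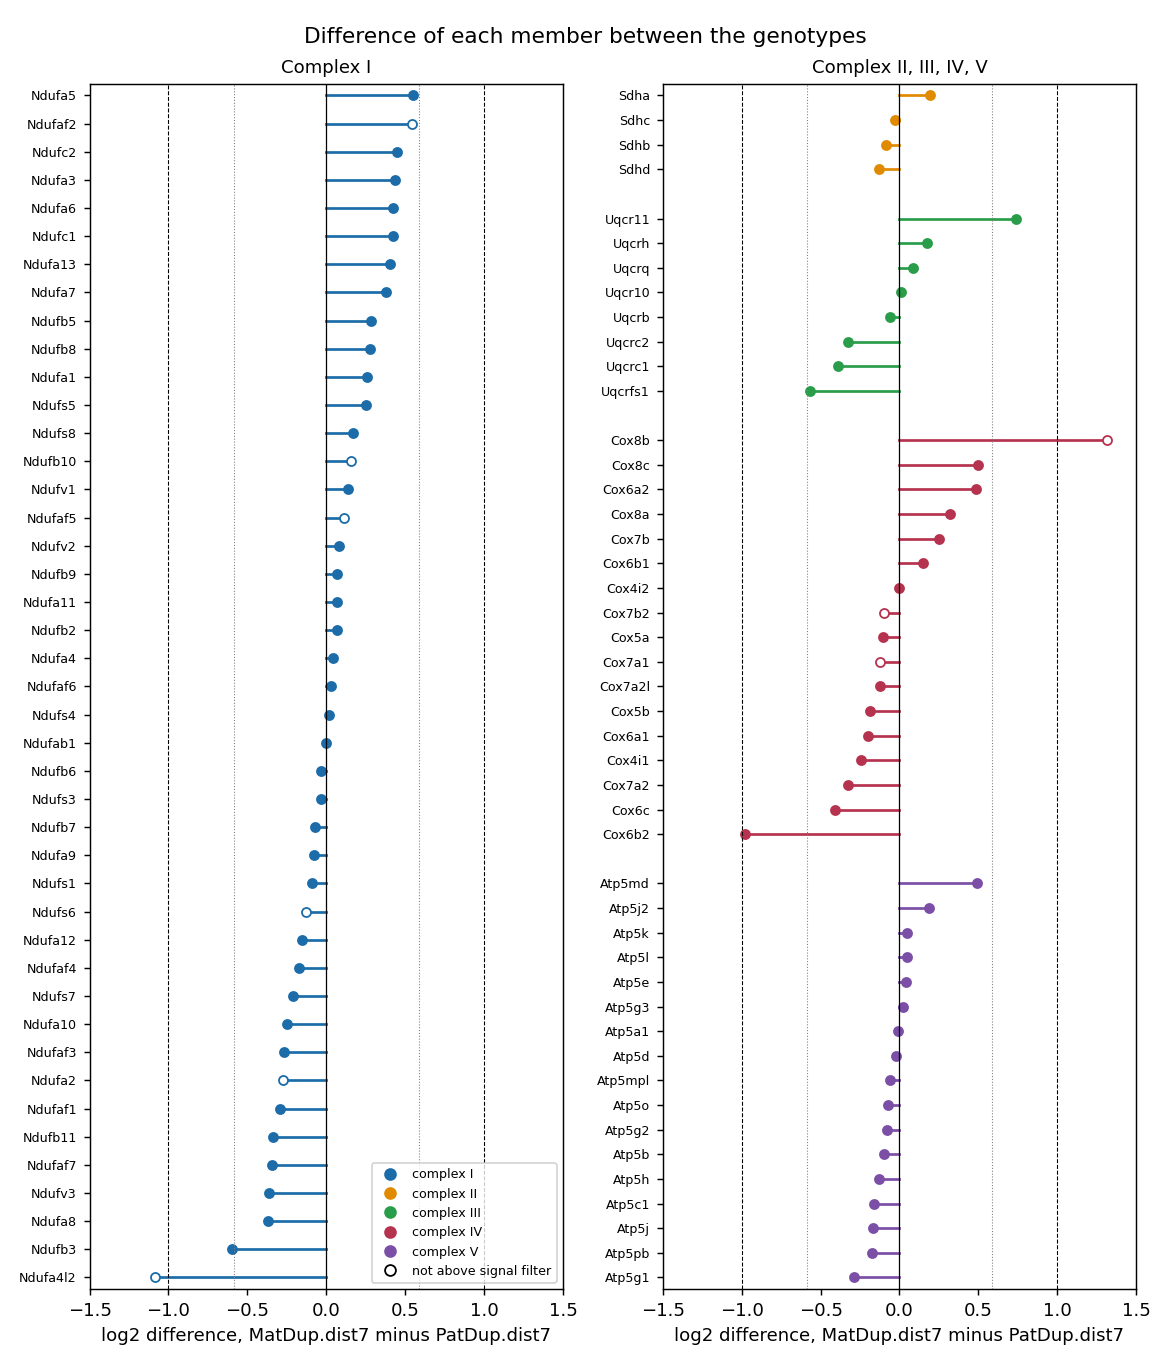
Log2 difference of each of the 89 members, MatDup.dist7 minus PatDup.dist7, on log2(intensity + 16), sorted within complexes; open points are genes not above the signal filter. Dotted lines mark 1.5-fold and dashed lines 2-fold; Cox8b at 1.31 and Ndufa4l2 at -1.08 are beyond 2-fold, and no complex II or V gene reaches 1.5-fold.

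Complex II, the succinate dehydrogenase, is also an enzyme of the tricarboxylic acid cycle and is wholly encoded in the nucleus. Its flavoprotein gene Sdha had 1030 in MatDup.dist7 cells and 899 in PatDup.dist7 cells (0.19). The iron-sulfur subunit gene Sdhb had 306 in MatDup.dist7 cells and 326 in PatDup.dist7 cells (-0.09). Of the membrane anchors, Sdhc had 1632 in MatDup.dist7 cells and 1666 in PatDup.dist7 cells (-0.03), and Sdhd had 308 in MatDup.dist7 cells and 339 in PatDup.dist7 cells (-0.13). Their median was -0.06, and the 4 genes spanned a smaller range than those of any other complex.

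Complex III, the cytochrome bc1 complex, had members on both sides of 0. Uqcrfs1, the Rieske iron-sulfur protein that takes electrons from ubiquinol, had 152 in MatDup.dist7 cells and 233 in PatDup.dist7 cells (-0.57). The core proteins, large subunits on the matrix side, were lower in MatDup.dist7 as well. Uqcrc1 had 997 in MatDup.dist7 cells and 1308 in PatDup.dist7 cells (-0.39), and Uqcrc2 had 979 in MatDup.dist7 cells and 1233 in PatDup.dist7 cells (-0.33). Cyc1, the cytochrome c1 gene, which the symbol rule does not include, stood at -0.40, with 593 in MatDup.dist7 cells and 788 in PatDup.dist7 cells.

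The small subunits of complex III ranged from -0.06 to 0.74. Uqcr11 had 98.1 in MatDup.dist7 cells and 52.2 in PatDup.dist7 cells (0.74). Both of its probe sets were higher in MatDup.dist7, at 124 in MatDup.dist7 cells and 60.6 in PatDup.dist7 cells for the brighter one and at 77.2 in MatDup.dist7 cells and 44.8 in PatDup.dist7 cells for the dimmer one. Uqcrh, the hinge protein of the cytochrome c contact, stood at 0.18, Uqcrq at 0.09, Uqcr10 at 0.01 and Uqcrb at -0.06. Over all 8 genes the median was -0.02, with 4 higher and 4 lower. The 3 probe sets of Uqcrb disagreed, with differences from -0.47 to 0.21.

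Complex IV, cytochrome c oxidase, had a median of -0.11, with 6 of 17 genes higher in MatDup.dist7 (35.3%, against 51.4% of all genes). Among the 9 widely expressed subunits the median was -0.19. Cox4i1, the largest nuclear-encoded one, had 778 in MatDup.dist7 cells and 926 in PatDup.dist7 cells (-0.25). Cox6c had 222 in MatDup.dist7 cells and 299 in PatDup.dist7 cells (-0.41), and both of its probe sets were lower in MatDup.dist7. Cox7a2 stood at -0.33, Cox6a1 at -0.20, Cox5b at -0.19 and Cox5a at -0.11. The 3 higher ones were Cox8a, with 1692 in MatDup.dist7 cells and 1353 in PatDup.dist7 cells (0.32), the X-linked Cox7b (0.25) and Cox6b1 (0.15). All 9 lay within 1.5-fold. Cox7a2l, which joins complexes III and IV in supercomplexes, stood at -0.12.

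The 7 tissue-restricted isoforms of complex IV ranged from -0.98 to 1.31, and 3 of them lay below the signal filter. Cox8b, the heart and skeletal muscle form of subunit VIII, had 23.8 in MatDup.dist7 cells and 0.00983 in PatDup.dist7 cells (1.31). Neither value passed the signal filter, and the PatDup.dist7 value was the only one under 1 among the members' probe sets. So low a value does not by itself show that the transcript is missing. When values below the 25th percentile of signals, an intensity of 22.0, were raised to it, the difference of Cox8b was 0.12, and with a pseudocount of 64 it was 0.46. Cox6b2, the testis form of subunit VIb, had 49.7 in MatDup.dist7 cells and 113 in PatDup.dist7 cells (-0.98).

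Other muscle forms did not all lie on the side of Cox8b. Cox6a2 had 94.3 in MatDup.dist7 cells and 62.7 in PatDup.dist7 cells (0.49). Cox7a1 had 37.3 in MatDup.dist7 cells and 41.9 in PatDup.dist7 cells (-0.12) and lay below the filter. Of 9 skeletal muscle markers, 5 lay above the filter. The summed intensity of all 9 was 2866 in MatDup.dist7 cells and 2188 in PatDup.dist7 cells. Acta1 alone made up 1887 and 1379 of these sums, in the same order. The median difference of the 9 was 0.37, with 6 higher in MatDup.dist7 and 3, Myod1, Myf5 and Myh3, lower. None of the 9 was at 0, and the lowest values were 5.17 for Myf5 in MatDup.dist7 and 2.31 for Myh8 in PatDup.dist7. Of 6 cardiac markers 2 lay above the filter, and all 6 had sums of 704 in MatDup.dist7 cells and 697 in PatDup.dist7 cells. None of the 5 brown fat markers did, with sums of 136 in MatDup.dist7 cells and 82.4 in PatDup.dist7 cells, and Cidea was listed at 0.00192 in PatDup.dist7. Their part in the values of the muscle isoforms was not tested, and in bulk cultures fewer cells of a type and less RNA per cell cannot be told apart.

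Among the forms known from testis, Cox8c had 164 in MatDup.dist7 cells and 111 in PatDup.dist7 cells (0.50), and Cox7b2 had 27.1 in MatDup.dist7 cells and 30.2 in PatDup.dist7 cells (-0.10). With Cox6b2 they thus lay on both sides of 0. The 5 germ cell markers were all below the signal filter, with sums of 99.9 in MatDup.dist7 cells and 118 in PatDup.dist7 cells, and Tnp1 was listed at 0.0103 in MatDup.dist7. Cox4i2, a form known from lung and from low oxygen, had 259 on each array (-0.0016).

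**Figure D4:**
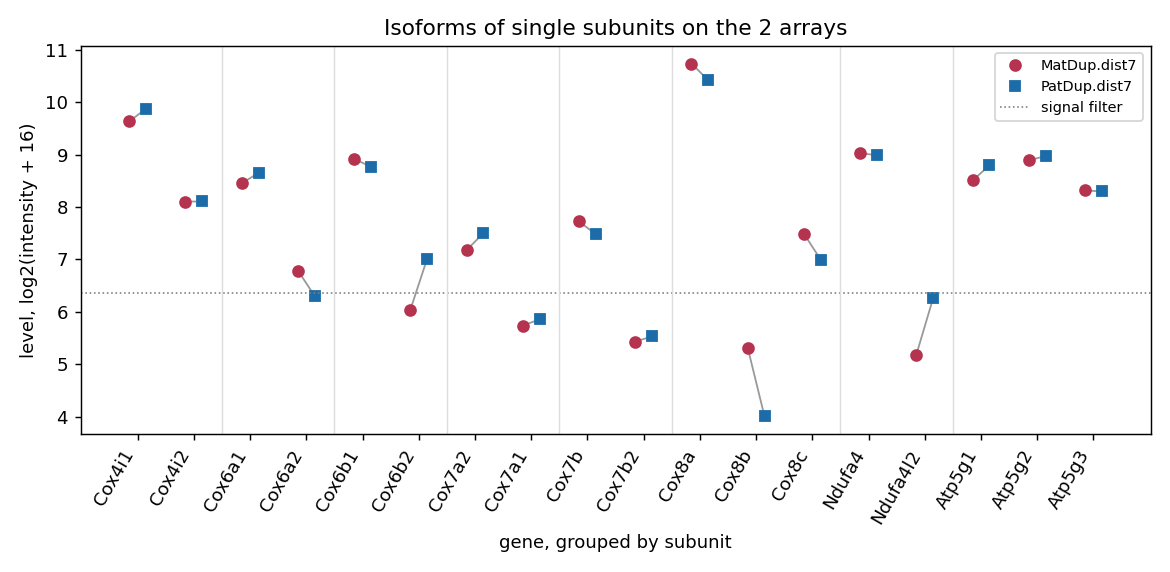
Level, log2(intensity + 16), of genes that encode alternative forms of 1 subunit, with the MatDup.dist7 value at the left and the PatDup.dist7 value at the right of each pair; the dotted line marks the signal filter. Cox8b, Cox7a1, Cox7b2 and Ndufa4l2 stay below the filter on both arrays; levels of different genes are not comparable, since each probe set has its own response.

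Ndufa4, named as a complex I gene, encodes a subunit now placed in complex IV. It had 506 in MatDup.dist7 cells and 492 in PatDup.dist7 cells (0.04). Its relative Ndufa4l2, known as a hypoxia-inducible gene that lowers complex I activity, had 20.3 in MatDup.dist7 cells and 60.9 in PatDup.dist7 cells (-1.08). Both values were below the filter. The difference of Ndufa4l2 was -0.57 with a pseudocount of 64 and -1.54 with a pseudocount of 1, so it was under 2-fold at the higher pseudocount.

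Complex V was the largest group with no gene 1.5-fold apart. Its 17 genes ranged from -0.29 to 0.49, with a median of -0.06. In the catalytic head and its stalk, Atp5a1 had 2388 in MatDup.dist7 cells and 2403 in PatDup.dist7 cells (-0.0090). Atp5b, the catalytic beta subunit, had 3555 in MatDup.dist7 cells and 3800 in PatDup.dist7 cells (-0.10). The rotating stalk gene Atp5c1 had 4488 in MatDup.dist7 cells and 5021 in PatDup.dist7 cells (-0.16). Atp5d stood at -0.02 and Atp5e at 0.04, so the head and stalk spanned from -0.16 to 0.04.

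All 4 peripheral stalk genes, whose products hold the head still against the membrane, were lower in MatDup.dist7, by little, against 9698 of all 19938 genes. Their median was -0.15, beside -0.12 for all genes in the range of signal from 416 to 4747, where the 4 lie. Atp5pb stood at -0.17, Atp5j at -0.17, Atp5h at -0.13 and Atp5o, the oligomycin sensitivity protein, at -0.07. The proton-carrying ring is built from subunit c, encoded by Atp5g1, Atp5g2 and Atp5g3, whose mature proteins are the same. Atp5g1 had 348 in MatDup.dist7 cells and 428 in PatDup.dist7 cells (-0.29). Atp5g2 had 460 in MatDup.dist7 cells and 486 in PatDup.dist7 cells (-0.08), and Atp5g3 had 303 in MatDup.dist7 cells and 298 in PatDup.dist7 cells (0.02).

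Of the 5 genes for the other membrane subunits, 4 (80%) were higher in MatDup.dist7, against 51.4% of all genes. Atp5md, which takes part in joining ATP synthase dimers, had 594 in MatDup.dist7 cells and 418 in PatDup.dist7 cells (0.49). Its 3 probe sets gave 0.13, 0.39 and 0.96, all positive but unequal. Atp5j2 stood at 0.19, Atp5k and Atp5l at 0.05 each, and Atp5mpl at -0.06.

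Several of these genes have processed copies in the mouse genome, and signal from such copies at a probe set was not separated. In all, 17 members had more than 1 probe set. For Atp5l, 6 probe sets ranged from -0.42 to 0.44, the widest spread of any member. Probe sets of Uqcrb, Atp5h, Cox7a2l, Ndufa11 and Ndufab1 also fell on both sides of 0, those of Ndufab1 by 0.0026. For the other 11 genes all probe sets lay on the same side, among them Cox5b, Cox6c, Atp5g1, Atp5g2, Atp5pb, Ndufb11 and Ndufs3 below 0 and Atp5md, Cox7b, Ndufc1 and Uqcr11 above it.

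Position on the chromosomes was examined because the genotypes differ in the parental origin of distal chromosome 7. The members lie on 19 chromosomes, and 9 of them on chromosome 7. In order along the 1734 measured genes of this chromosome, Ndufa3 stands at place 7, Cox6b2 at 40, Cox7a1 at 455, Cox6b1 at 484, Ndufc2 at 967, Uqcrc2 at 1371, Ndufab1 at 1390, Cox6a2 at 1507 and Cox8b at 1630. Of the 9, 5 were higher in MatDup.dist7, with a median of 0.15, beside 0.08 and 55.8% positive over all genes of the chromosome. Cox8b is the most distal member and precedes the imprinted genes Igf2 at place 1695 and Cdkn1c at 1707. The 5 measured genes before it ranged from -0.54 for Bet1l to 0.45 for Sirt3, and the 5 after it from -0.84 for Ifitm1 to 0.27 for Nlrp6. Cox6b2, with the next largest absolute difference of the 9, lies at the opposite end of the chromosome.

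The 3 X-linked members are of interest because the arrays differ in Xist. Ndufa1, needed for the membrane arm of complex I, had 124 in MatDup.dist7 cells and 101 in PatDup.dist7 cells (0.26). Cox7b had 196 in MatDup.dist7 cells and 162 in PatDup.dist7 cells (0.25), and Ndufb11 had 206 in MatDup.dist7 cells and 264 in PatDup.dist7 cells (-0.33). They lay on both sides of 0 and within 1.5-fold.

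Other gene groups of the mitochondrion, chosen by function, were set beside the members. Of 12 measured enzymes of the tricarboxylic acid cycle none was 1.5-fold apart, against 27.9% of all genes, and the median was -0.10. The extremes were Sucla2 (-0.53) and Fh1 (-0.35) on one side and Suclg1 (0.22) and Idh3b (0.18) on the other. The carriers gave a similar picture: all 6 lay within 1.5-fold, against 72.1% of all genes. The main adenine nucleotide carrier genes Slc25a4 and Slc25a5 stood at 0.02 and 0.19. Ucp1 (0.29) and the phosphate carrier Slc25a3 (0.05) were positive, and Ucp3 (-0.43) and Slc25a31 (-0.28) negative. Ucp1 and Ucp3 lay below the signal filter, and Slc25a31 passed it only through its PatDup.dist7 value.

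Assembly factors of the complexes went both ways. Of 15 measured for complex IV, 1 (6.67%) was 2-fold apart, against 7.63% of all genes, and 2 (13.3%) were 1.5-fold apart, against 27.9%. Cox14 was the 1 past 2-fold, with 97.4 in MatDup.dist7 cells and 36.0 in PatDup.dist7 cells (1.12). Coa6 was 1.5-fold higher (0.66), the most negative were Cox11 (-0.50) and Cox18 (-0.47), and the median was -0.20. Among 21 for complexes I, II and V, which include the Ndufaf genes, 4 (19.0%) were at least 1.5-fold apart, against 27.9% of all genes. Nubpl (0.97) and Sdhaf4 (0.81, below the signal filter) were higher in MatDup.dist7, and Foxred1 (-0.70) and Sdhaf1 (-0.69) lower. Of 8 complex III and cytochrome c genes, 6 were lower in MatDup.dist7 and 2 (25%) higher, against 51.4% of all genes. The median of the 8 was -0.28. The 8 ranged from Uqcc3 (-0.66) and the Rieske-inserting Bcs1l (-0.44) to Uqcc2 (0.31) and Ttc19 (0.52). Cox14, Cox11, Nubpl, Foxred1 and Uqcc3 passed the signal filter only through the genotype in which each was higher.

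Regulators of mitochondrial gene expression went both ways. Of 16 measured, 6 were higher in MatDup.dist7 and 10 lower, with a median of -0.26, beside 0.02 over all genes. At least 1.5-fold lower in MatDup.dist7 were 5 and higher 1, that is 6 of 16, against 27.9% of all genes. Ppargc1b, a coactivator of mitochondrial biogenesis, had 44.3 in MatDup.dist7 cells and 105 in PatDup.dist7 cells (-1.005, just past 2-fold). Gabpb2, a partner subunit of GABPA, stood at -0.97, the mitochondrial RNA polymerase gene Polrmt at -0.75, and Esrra, a nuclear receptor that acts with these coactivators, at -0.65. Ppargc1a (-0.67) was below the filter, and Ppargc1b, Gabpb2 and Polrmt passed it only through their PatDup.dist7 values. Polg, the mitochondrial DNA polymerase, had 207 in MatDup.dist7 cells and 97.3 in PatDup.dist7 cells (0.97), Nrf1 stood at 0.47 and Gabpa at -0.50.

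Ribosomal protein genes, large groups whose products also form stable complexes, served as a further comparison. Of 53 cytoplasmic ribosomal protein genes, 1 (1.89%) was at least 1.5-fold apart, against 27.9% of all genes, and their median was 0.08. Of 77 mitochondrial ribosomal protein genes, 18 (23.4%) were, a share close to the 27.9% of all genes and the 23.2% of genes above the filter. Their median was -0.22, with a range from Mrpl33 (-1.26) and Mrpl46 (-0.89) to Mrpl52 (0.71) and Mrpl43 (0.88). Mrpl33 lay below the signal filter, and Mrpl46 and Mrpl43 passed it only through the genotype in which each was higher. On these arrays the members lay between the 2 ribosomal groups in the share of genes 1.5-fold apart. Transcripts encoded by mitochondrial DNA were not analysed here.

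**Figure D5:**
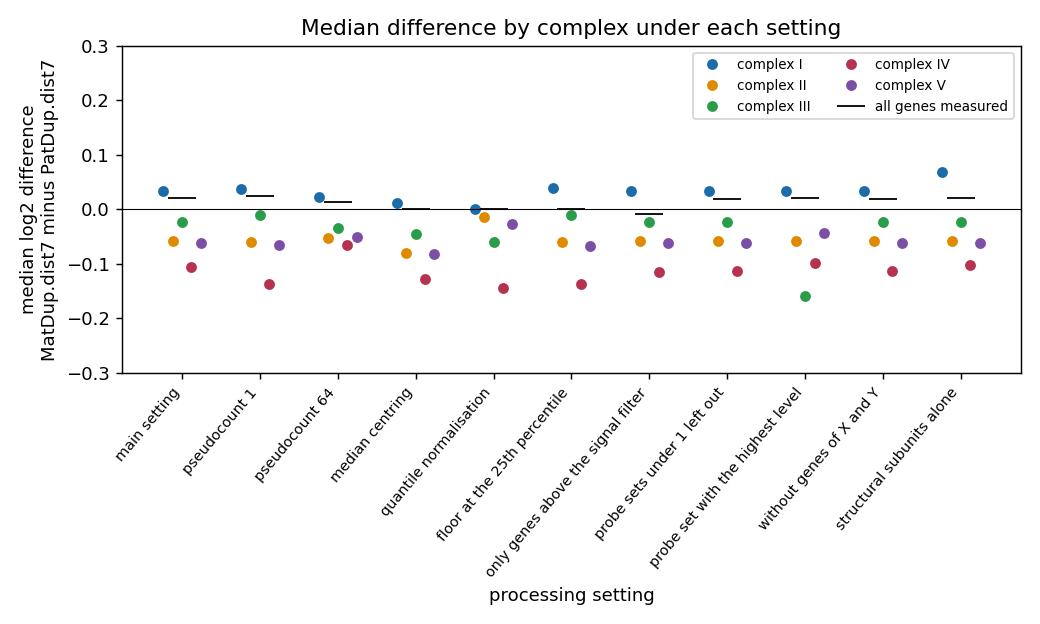
Median log2 difference, MatDup.dist7 minus PatDup.dist7, of each complex (coloured points) and of all genes measured (bars) under the main setting and 10 alternative settings. Complex I stays between 0.00021 and 0.07 and complex IV between -0.14 and -0.07 in all of them.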

How the data were processed

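The authors deposited a table of linear intensities, with 1 value for each probe set in each sample. Per the submitters' processing notes, Affymetrix Expression Console was used; the sources used here do not give the background correction, summarisation or normalisation. Of 35557 probe sets, 21789 had 1 platform gene symbol, 1621 several and 12147 none; only the first kind was used, and 6 probe sets with several symbols, at least 1 of which matched the rule, were left out. Current symbols and chromosomes came from the RefSeq table of GRCm38.p6 (21698 probe sets matched), and promoters from RefSeq.

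With Python 3.11.15, numpy 2.4.6 and pandas 2.3.3, log2(intensity + 16) was averaged over the probe sets of a gene, and the intensity printed for a gene is this mean turned back to the linear scale. With 1 array per genotype there was no test, and no p-value is given. The limits of 2-fold and 1.5-fold are descriptions, and precision is limited by the number of arrays. The arithmetic was checked on simulated arrays with known differences, without noise and with all levels raised. Recovery was fixed by how these arrays were built, and low signals were not tried.

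The members and lists were chosen with earlier results of these data known, and the roles within complexes are textbook knowledge. Genes were named by rule: members at least 2-fold apart, the 3 extremes in each direction per complex, isoforms, core and Sdh subunits, members of chromosomes 7 and X or with several probe sets, and the 2 extremes in each direction per list; others were named after their values were seen, among them those giving the ends of ranges. The alternatives were pseudocounts of 1 and 64, median centring, quantile normalisation, a floor at the 25th percentile, the signal filter, leaving out probe sets under 1, the brightest probe set per gene, leaving out chromosomes X and Y, and structural subunits alone.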

Additional observations from a re-analysis of the deposited data

How the results depend on the processing

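The median difference of the members ran from -0.05 with median centring to -0.01 for structural subunits alone. Medians by complex moved by less than 0.1 from the main setting under all 10 alternatives, except that of complex III, which was -0.02 in the main setting and -0.16 with the brightest probe set per gene. With no replicates there is no measured error to set such moves against, and the limit of 0.1 was chosen after seeing the data. Counts past a fold limit rest on few genes near the bottom of the signal. Members at least 2-fold lower in MatDup.dist7 numbered 1 in the main setting, 2 with a pseudocount of 1, quantile normalisation or the floor (Ndufa4l2 and Cox6b2 each time), and 0 with a pseudocount of 64, above the signal filter or for structural subunits alone. Members at least 2-fold higher numbered 1 in the main setting and 0 with a pseudocount of 64, with the floor, above the filter or without probe sets under 1, as Cox8b had no value or a smaller difference there. At least 1.5-fold higher were 2 in the main setting, 4 with a pseudocount of 1 or the floor, 1 above the filter or without probe sets under 1, and 0 with a pseudocount of 64, which also left 1 at least 1.5-fold lower in place of 3. Cox8b ranged from 0.12 to 4.62, Ndufa4l2 from -1.54 to -0.57, Cox6b2 from -1.19 to -0.64 and Uqcr11 from 0.48 to 0.91. The sign of a member's difference changed for 7 of 89 genes with quantile normalisation, 2 with median centring and 1 with the brightest probe set. No paired analysis was possible because each genotype has 1 array.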
